A study of Mus musculus with 16 samples.

Results

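Islr2 and 4 genes named beside it were followed through brain tissue of Brg1 conditional knockout (cKO) and control mice. The 4 are Islr, its paralog, and the receptor genes Ntrk2, Ntrk3 and Ret. Each gene had 1 probe set, so the group comprised 5 of 35556 probe sets and 5 of the 19938 genes tested. Islr2 was chosen for its cKO difference in the olfactory bulb and for the gap between its cKO differences in the 2 tissues. The other 4 were chosen by their known role or sequence resemblance, not by their values.

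The study hybridised total RNA to 16 one-colour Affymetrix arrays. The mice were 2.5 months old and of mixed C57BL/6, CD1 stock. Samples came from the olfactory bulb core (OB), which adult-born neurons enter, or from the subependymal zone (SEZ), the stem cell niche at the ventricle where they are born. Each tissue had 3 cKO samples (GlastCreERT2/Brg1fl/fl) and 5 control samples (GlastCreERT2/Brg1fl/+), except that SEZ control replicate 5 was labelled GlastCreERT2/Brg1+/+. All animals, controls included, therefore carried a tamoxifen-dependent Cre at the Glast locus, whose gene Slc1a3 is active in astrocytes and neural stem cells. Brg1, the product of Smarca4, is the motor subunit of SWI/SNF chromatin remodellers. The labels list no treatment, and the sources used here do not say when recombination took place. The comparison asks which levels differ when Brg1 is deleted in the Glast lineage of adult tissue that also holds cells outside that lineage.

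Islr2, also known as Linx, encodes a membrane protein of neurons with leucine-rich repeats and an immunoglobulin domain. In mouse sensory and motor neurons it binds Trk and Ret receptors and takes part in axon extension. Ntrk2 encodes TrkB, the receptor of BDNF and neurotrophin-4, which also occurs as a truncated form without kinase in astrocytes. Ntrk3 encodes TrkC, the receptor of neurotrophin-3. Ret is the kinase through which ligands of the GDNF family signal once they are held by a GFR alpha co-receptor. Islr, also known as Meflin, encodes a small protein with the same kinds of domain and is known from stromal cells and fibroblasts. All 5 genes were read as 1 value each, so the truncated and the kinase form of TrkB are not told apart.

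Promoter sequences of RefSeq (build GRCm38.p6) were matched for 3 of the 5 genes, namely Islr2, Islr and Ntrk2. They are shown for start 1 and start 3 of Islr2 in RefSeq's order, the gene whose level differed, and for Islr, its next protein-coding gene on chromosome 9. Each window holds 250 bases before and 50 bases after the start, on the minus strand, with CpG dinucleotides in capitals.
Islr2 start 1, chr9:58204270-58204569: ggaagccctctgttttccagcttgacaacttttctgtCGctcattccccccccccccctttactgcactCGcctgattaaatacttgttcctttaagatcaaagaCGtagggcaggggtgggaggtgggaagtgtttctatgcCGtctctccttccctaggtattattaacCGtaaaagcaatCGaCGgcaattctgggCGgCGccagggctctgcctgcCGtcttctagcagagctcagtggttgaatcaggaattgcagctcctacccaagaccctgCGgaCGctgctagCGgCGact
Islr2 start 3, chr9:58202295-58202594: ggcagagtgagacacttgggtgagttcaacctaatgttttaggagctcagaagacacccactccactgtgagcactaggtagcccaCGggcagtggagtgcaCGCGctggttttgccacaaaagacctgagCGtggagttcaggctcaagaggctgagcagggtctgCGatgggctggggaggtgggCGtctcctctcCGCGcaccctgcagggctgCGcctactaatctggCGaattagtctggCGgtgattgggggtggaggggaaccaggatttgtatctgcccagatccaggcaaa
Islr, chr9:58158505-58158804: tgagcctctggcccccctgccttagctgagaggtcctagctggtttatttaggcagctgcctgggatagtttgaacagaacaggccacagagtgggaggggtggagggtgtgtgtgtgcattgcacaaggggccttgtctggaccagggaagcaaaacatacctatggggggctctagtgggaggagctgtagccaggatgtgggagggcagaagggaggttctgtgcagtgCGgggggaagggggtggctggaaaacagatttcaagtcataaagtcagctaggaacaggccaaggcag

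The window of Islr2 start 1 held 14 CpG dinucleotides, and 36.3% of all 32851 promoters of this length held at least as many. That of start 3 held 11, a number reached by 41.4% of promoters. The window of start 2, which overlaps that of start 3 and is not printed for that reason, held 6, a number reached by 56.4%. The Islr window held 1, and 94.6% of promoters held at least 1. The median promoter held 7. Both strands were searched for an NFI core (TTGGC), a POU octamer (ATGCAAAT), a SOX site (ACAAAG), an E-box (CANNTG), a TATA box (TATAAA) and a CCAAT box. The window of Islr2 start 1 held none of these letters. That of start 3 held 1 E-box and 1 CCAAT box, motifs present in 72.3% and 37.4% of promoters. The Islr window held 1 NFI core and 1 E-box, of which the NFI core occurs in 46.7% of promoters. These matches describe letters only.

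Islr2 was lower in the OB of cKO mice than in the OB of controls and overlapped between the genotypes in the SEZ. All values below are log2 RMA expression. In OB cKO samples Islr2 measured 8.90, 8.77 and 8.63, against 10.13, 10.06, 9.72, 10.06 and 10.32 in OB controls. The 2 groups did not overlap, and the lowest control lay clearly above the highest cKO sample. The group means were 8.77 ± 0.14 in OB cKO (SD, n = 3) and 10.06 ± 0.22 in OB control (n = 5). The difference was -1.29 on the log2 scale (SE 0.11, 95% interval -1.52 to -1.06), which is 2.45-fold lower in cKO. In this contrast 0.0451% of all genes were called, 9 lower and 0 higher, at an adjusted p threshold of 0.05 (2 without OB cKO replicate 3), and 2.53% of genes had groups without overlap. As this contrast chose Islr2, its value is a description with no test.

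**Figure D1:**
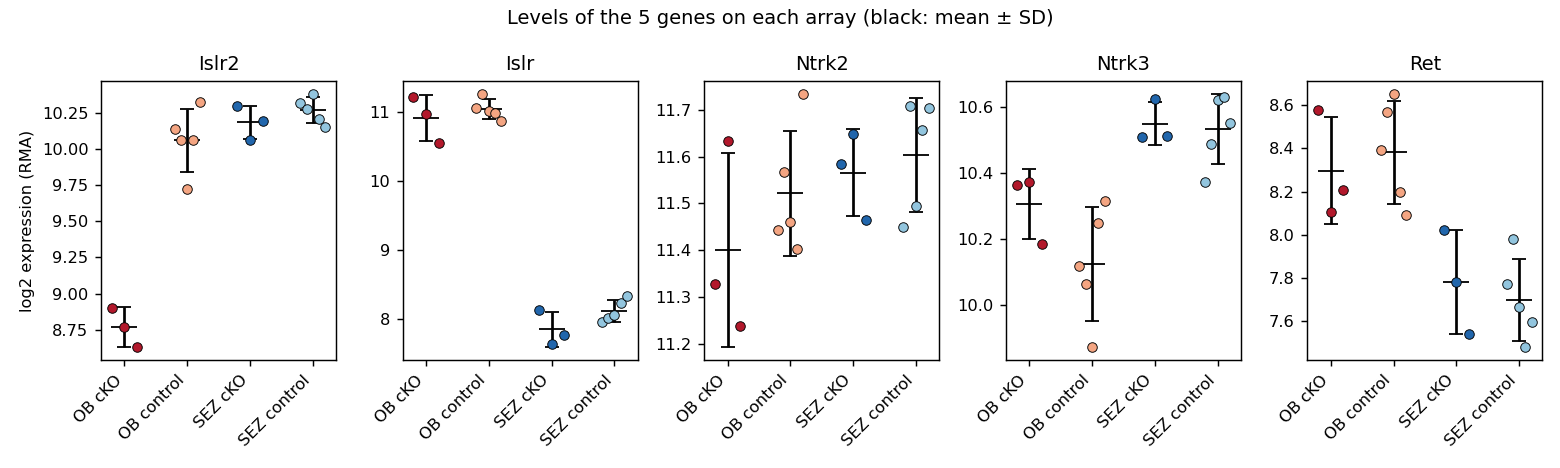
Log2 RMA expression of Islr2, Islr, Ntrk2, Ntrk3 and Ret in every array by tissue and genotype, with cKO left of control; points are arrays, and bars give the mean and SD (n = 3 cKO and 5 control). Islr2 lies between 8.63 and 8.90 in OB cKO and at 9.72 or above in every other array, while Islr separates the tissues.

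In SEZ cKO samples Islr2 measured 10.29, 10.06 and 10.19, against 10.32, 10.28, 10.38, 10.21 and 10.15 in SEZ controls. These groups overlapped, with means of 10.18 ± 0.12 and 10.27 ± 0.09. The difference was -0.08 (95% interval -0.31 to 0.14). The gap between the tissues that chose Islr2 contains this value, so it too is a description with no test. The interval leaves room for a change of up to 0.31 downwards. In SEZ limma called 0 of 19938 genes (0%), and 2.47% of genes fell under 0.05 before adjustment. Groups without overlap in SEZ were found for 2.00% of genes.

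The cKO difference of Islr2 in OB minus that in SEZ was -1.21 (SE 0.15, 95% interval -1.53 to -0.88). It was the 1 gene of 19938 called for this interaction (0.00502%), and it was selected on that ground. With OB cKO replicate 2 or 3, or SEZ cKO replicate 1 or 3, left out in turn, 0 of all genes were called for it. With any single array left out, the value for Islr2 lay between -1.29 and -1.14, and its OB difference between -1.38 and -1.22.

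Between tissues of the control mice, the difference of Islr2, OB minus SEZ, was -0.21 (95% interval -0.40 to -0.01). Without OB control replicate 5, the highest of its group, this difference was -0.27. In cKO mice the same gap was -1.41 (SE 0.12). Both gaps are given as descriptions with no test, because the interaction that chose Islr2 is the difference between them. In order of level, OB cKO stood lowest. OB control, SEZ cKO and SEZ control followed within 0.21 of each other, and neighbours among these 3 overlapped.

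**Figure D2:**
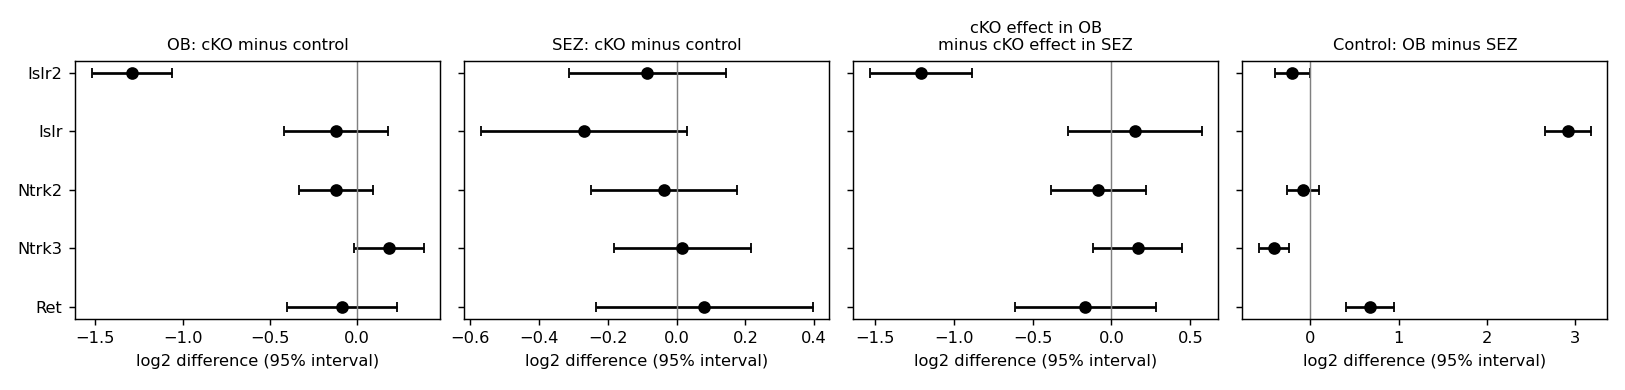
Log2 differences with 95% intervals (limma, 16 arrays) for Islr2, Islr, Ntrk2, Ntrk3 and Ret: cKO minus control in OB and in SEZ, the difference between these effects, and OB minus SEZ in control. Panels have their own x scales, and of the 5 genes Islr2 alone has an interval away from 0 in the OB genotype panel.

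Several library facts bear on these values. Slc1a3, the locus of the Cre driver, read 8.85 in OB cKO replicate 3 and 8.16 in SEZ cKO replicate 3, against 11.16 or more in every other array. Without both arrays the Islr2 difference in OB was -1.22. In cKO replicate 1, Xist read 6.08 in OB and 12.40 in SEZ, so the 2 tissues of that number do not match in sex-linked genes. Without both arrays the Islr2 difference in OB was -1.36. SEZ control replicates 2 and 4 carried the cortical transcript Slc17a7 at 10.58 and 11.06, above the other SEZ arrays at 7.84 to 8.98. Smarca4 itself read 10.97 to 11.09 in OB cKO and 10.95 to 11.06 in OB control, and its probe set is not resolved by exon, so it checks nothing about the deleted part.

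Transcripts of neuroblasts, the migrating young neurons, were also at lower values in OB cKO. The mean of 10 neuroblast genes was 9.81 to 10.08 in OB cKO, against 10.45 to 10.75 in OB control, without overlap. Of the 10, 3 were called lower, against 0.0451% of all genes. The list was chosen with earlier results of these data known, so its counts and means are descriptions. Cd24a, a surface glycoprotein, was 2.83-fold lower. St8sia2, which makes polysialic acid, fell by 0.84 on the log2 scale and Nrep, a neuronal regeneration protein, by 0.71. All 10 had estimates below 0, with a median of -0.60, against -0.005 over all genes. These calls rest on the library set: without OB cKO replicate 3, 0 of the 10 passed, as in a fit on the OB arrays alone, and without cKO replicate 1 in both tissues, 1 passed. In SEZ cKO the same mean was 9.29 to 9.32, against 9.44 to 9.73 in SEZ control, and 0 of the 10 genes passed. All 10 estimates were below 0 in SEZ too, with a median of -0.15, against 0.0044 over all genes. The other 14 marker lists, among them astrocytes, bulb interneurons, mitral cells and oligodendrocytes, overlapped between cKO and control in both tissues. In bulk tissue, fewer cells of a type and less RNA per cell cannot be told apart. The part of the neuroblast transcripts in the Islr2 difference was not tested.

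**Figure D3:**
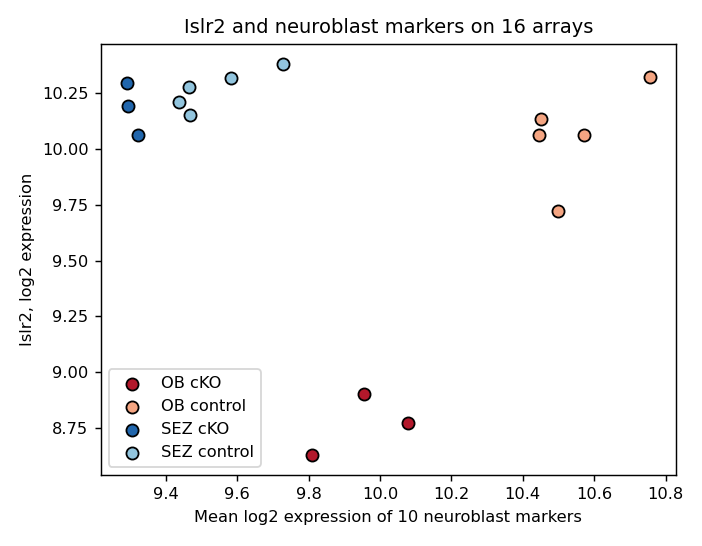
Islr2 (log2 RMA expression) against the mean of 10 neuroblast marker genes in each of 16 arrays, by tissue and genotype. The 3 OB cKO arrays lie lowest in Islr2 with neuroblast means of 9.81 to 10.08, while the SEZ arrays lie above them in Islr2 at neuroblast means of 9.29 to 9.73.

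Across all 16 arrays, Islr2 and the neuroblast mean had a Pearson r of -0.154, and after group means were removed r was 0.55. The arrays share tissue and genotype, so both are descriptions. The gene most like Islr2 across the 16 arrays was Ezh2, the methyltransferase of the Polycomb repressive complex, with r = 0.92. Next came Sncaip (0.90), which encodes a partner of alpha-synuclein, then Csnk1d (0.885), a casein kinase, St8sia2 (0.882) and Exosc1 (0.878), a subunit of the RNA exosome. Because OB cKO stands apart in Islr2, genes chosen this way tend to be lower there, and their OB differences are given with no test. They were -0.47 for Ezh2, -0.59 for Sncaip, -0.11 for Csnk1d, -0.84 for St8sia2 and -0.20 for Exosc1. Removing the group means left r at 0.40 for Ezh2, 0.656 for Sncaip, -0.0272 for Csnk1d, 0.209 for St8sia2 and 0.195 for Exosc1, each lower than before. The genes most opposed to Islr2 were Iqcc (-0.802), Plekha7 (-0.794) and Ccdc9b (-0.791). With group means removed the highest values belonged to Fam174b (0.892) and Ctdspl2 (0.886), whose r over the 16 arrays was -0.411 and -0.449. Both were picked as the highest of all genes tested, so their size is a description.

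The genes around Islr2 did not pass for genotype. Of 10 protein-coding neighbours on chromosome 9, 5 on each side, all were measured and 0 were called in either tissue. Over all genes 0.0451% were called in OB and 0% in SEZ, so this count says little about the neighbours. Their cKO differences ran from -0.17 (Stoml1) to 0.26 (Stra6) in OB and from -0.27 (Islr) to 0.17 in SEZ. Pml, on the other side of Islr2 from Islr and the gene of the nuclear body protein, differed by 0.07 in OB.

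**Figure D4:**
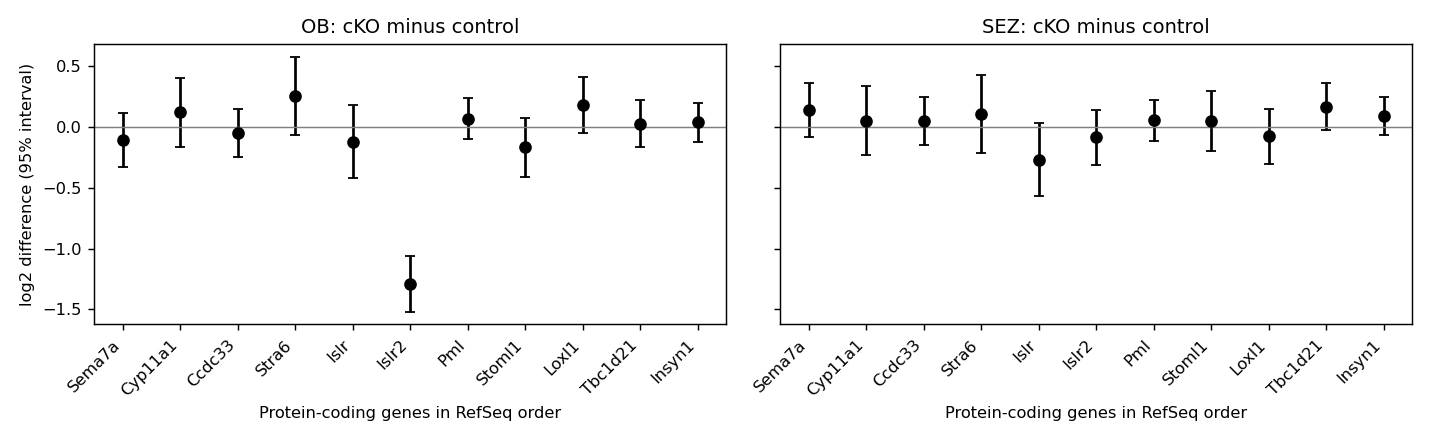
Log2 difference, cKO minus control, with 95% interval for Islr2 and its 5 nearest protein-coding genes on each side in RefSeq order, in OB (left) and SEZ (right). Islr2 lies at -1.29 in OB, and its neighbours lie between -0.17 and 0.26.

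Islr, the paralog and neighbour, separated the tissues rather than the genotypes. In OB cKO samples it measured 11.22, 10.98 and 10.56, against 11.06, 11.27, 11.01, 10.99 and 10.88 in OB controls. In SEZ cKO samples it measured 8.14, 7.65 and 7.78, against 7.97, 8.02, 8.06, 8.25 and 8.34 in SEZ controls. Genotypes overlapped in both tissues, while every OB array stood above every SEZ array. In control mice Islr was 7.55-fold higher in OB than in SEZ (2.92 on the log2 scale, SE 0.12, limma, adjusted p = 8.94e-12). In this contrast 27.5% of all genes were called, 12.6% higher and 14.9% lower in OB, so a difference between the tissues is common. In cKO mice it was 8.37-fold higher (3.07, SE 0.16, limma, adjusted p = 2.26e-10), in a contrast that called 23.1% of genes, with 13.1% of all genes lower in OB.

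The cKO differences of Islr were -0.12 in OB (95% interval -0.42 to 0.18) and -0.27 in SEZ (-0.57 to 0.03), and neither passed (limma, adjusted p = 1 for both). Without OB cKO replicate 3 the OB value turned to 0.06. The genes most like Islr across the 16 arrays were Parva (0.995), an actin-linked adhesion protein, Tm6sf1 (0.994) and Frzb (0.994), a secreted Wnt inhibitor. With group means removed these were 0.621, 0.545 and 0.802. Frzb, a marker of olfactory ensheathing cells in the list used here, was 11.3-fold higher in OB than in SEZ of controls. As Frzb was picked by likeness to Islr, which separates the tissues, its value is given with no test. Of the other 3 measured ensheathing markers, Fabp7 was higher by 1.72 in OB, while Npy (-0.27) and Sostdc1 (-0.24) did not pass. Of 8 fibroblast markers 1 was called higher in OB and 0 lower, with 3 estimates below 0 and a median of 0.26. Over all genes 12.6% were called higher in OB and 14.9% lower. Col1a1 (0.29) and Dcn (0.73) did not pass. The part of these cell types in the level of Islr was not tested.

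Ntrk2 passed in none of the 5 contrasts. It measured 11.33, 11.63 and 11.24 in OB cKO, against 11.44, 11.57, 11.46, 11.40 and 11.73 in OB control. In SEZ it measured 11.59, 11.65 and 11.46 in cKO, against 11.45, 11.71, 11.50, 11.66 and 11.70 in control. All 4 ranges overlapped. The cKO differences were -0.12 in OB (95% interval -0.33 to 0.09) and -0.04 in SEZ (-0.25 to 0.18), and OB differed from SEZ by -0.08 in controls (-0.26 to 0.10). The limma adjusted p was 1, 1 and 0.579, and 0.343 for OB against SEZ in cKO mice, where the difference was -0.17. These 3 intervals reached no further than about 0.33 from 0. Wider were those for OB against SEZ in cKO mice (-0.40 to 0.07) and for the difference of the cKO effects (-0.38 to 0.22). The genes most like Ntrk2 were Pdia3 (0.942), a chaperone of the endoplasmic reticulum, Itfg1 (0.941) and Dnal1 (0.938). With group means removed r was 0.924, 0.923 and 0.927.

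Ntrk3 was lower in OB than in SEZ. It measured 10.36, 10.37 and 10.18 in OB cKO, against 10.12, 10.06, 9.87, 10.25 and 10.32 in OB control. In SEZ it measured 10.51, 10.63 and 10.51 in cKO, against 10.37, 10.49, 10.62, 10.63 and 10.55 in control. In control mice OB and SEZ did not overlap, and Ntrk3 was 1.33-fold lower in OB (-0.41, SE 0.08, limma, adjusted p = 0.000876). In cKO mice the ranges were likewise apart, but the difference of -0.24 did not pass (limma, adjusted p = 0.116). Of all genes, 21.9% had no overlap between the tissues in control and 33.3% in cKO mice.

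The cKO effect on Ntrk3 was 0.18 in OB (95% interval -0.02 to 0.38, unadjusted p = 0.0687 in limma) and 0.02 in SEZ (-0.18 to 0.22), with an adjusted p of 1 in both. The difference between the 2 effects was 0.17 (-0.11 to 0.45) and did not pass either (limma, adjusted p = 1). Kcna4 (0.93) and Scn8a (0.912), a potassium and a sodium channel gene, and Lancl1 (0.926) followed Ntrk3 most closely over the 16 arrays. Removing the group means left r at 0.801, 0.705 and 0.696, in that order.

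Ret was higher in OB than in SEZ. It measured 8.58, 8.11 and 8.21 in OB cKO, against 8.39, 8.57, 8.65, 8.20 and 8.09 in OB control. In SEZ it measured 8.02, 7.78 and 7.54 in cKO, against 7.77, 7.98, 7.67, 7.48 and 7.60 in control. The tissues did not overlap within either genotype, while the genotypes overlapped within each tissue. In controls Ret was 1.60-fold higher in OB (0.68, SE 0.13, limma, adjusted p = 0.00057). In cKO mice it was 1.43-fold higher (0.52, SE 0.17, limma, adjusted p = 0.0331). The cKO call was lost without OB cKO replicate 1 or 3, or without SEZ cKO replicate 2 or 3, where the limma adjusted p was 0.175, 0.0536, 0.0778 and 0.14.

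The cKO differences of Ret were -0.08 in OB (95% interval -0.40 to 0.23) and 0.08 in SEZ (-0.23 to 0.40), and neither passed (limma, adjusted p = 1). Pde5a (0.942), a cyclic GMP phosphodiesterase, Cyp1b1 (0.932), a cytochrome P450, and Nxph1 (0.922), a neurexin ligand, were most like Ret over the 16 arrays. Removing the group means left r at 0.815, 0.781 and 0.753, in that order. Among the 5 genes themselves, Islr and Ret had r = 0.853 across the arrays and Ntrk3 and Ret had r = -0.853. With group means removed these were 0.343 and -0.564, so much of both followed the tissue. Islr2 and Ntrk3 had r = 0.311 over all arrays and 0.593 with group means removed.

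The genes of the wider pathways were also compared. The lists held ligands, co-receptors, adaptors, downstream targets and other leucine-rich-repeat proteins. Of their 111 measured genes, limma called 0 for cKO against control in either tissue and 0 for the difference between tissue effects. Over all genes the shares called were 0.0451% in OB, 0% in SEZ and 0.00502% for the difference. With shares this small, counts of 0 say little about the lists. Before adjustment 5 fell under 0.05 in OB (4.5%, against 3.51% of all genes), 3 in SEZ (2.7%, against 2.47%) and 1 for the difference (0.901%, against 1.48%). Among neurotrophins, 2 of 4 were measured as single-symbol genes. Bdnf was 6.67 ± 0.18 in OB cKO and 6.71 ± 0.12 in OB control, and Ntf5, the neurotrophin-4 gene, 6.45 ± 0.12 and 6.34 ± 0.11. Bdnf was higher in OB than in SEZ of controls by 0.31 (SE 0.08, limma, adjusted p = 0.00683), a call lost without SEZ control replicates 2 and 4 (limma, adjusted p = 0.0599). Its values lie near the lower quartile of all gene means, 6.54, where array signal limits what can be seen.

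Of 7 measured neurotrophin receptors and partners besides Ntrk2 and Ntrk3, limma called 3 between the control tissues, 1 of them higher in OB and 2 lower, where 27.5% of all genes were called. Ngfr, the p75 receptor shared by neurotrophins, was higher by 0.26 (limma, adjusted p = 0.0395). That call was lost without OB control replicate 2, 3 or 4 or SEZ control replicate 1, 4 or 5, where the limma adjusted p of Ngfr ran from 0.0507 to 0.114. Sorcs1, a sorting receptor, averaged 8.71 ± 0.12 in OB and 10.25 ± 0.21 in SEZ controls and was lower by 1.54 (limma, adjusted p = 1.28e-09). Sorcs2 was lower by 0.24, which did not pass without SEZ control replicates 2 and 4 (limma, adjusted p = 0.0609). The cKO differences of these 7 ran from -0.18 to 0.14 in OB.

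Of 8 GDNF co-receptor genes, 1 was higher and 1 lower in the OB of controls, where 27.5% of all genes were called. Gfra2, which holds neurturin, averaged 10.53 ± 0.16 in OB and 8.75 ± 0.58 in SEZ controls, higher by 1.77 (limma, adjusted p = 5.51e-06). Gfra1, which holds GDNF, averaged 9.18 ± 0.11 in OB and 10.66 ± 0.15 in SEZ controls, lower by 1.47 (limma, adjusted p = 4.26e-09). The other 6 did not pass. Of the 4 ligands, Artn (artemin) was higher in OB by 0.85 and Gdnf was lower in OB by 0.32 (limma, adjusted p = 7.14e-06 and 0.00636). Ret and Gfra2 were thus both higher in the bulb, and Gdnf and Gfra1 both lower. Nrtn, which encodes neurturin, did not follow Gfra2. It averaged 7.78 ± 0.25 in OB and 7.91 ± 0.24 in SEZ controls and did not pass. In OB cKO, Gfra1 differed from control by -0.19 and Gfra2 by 0.02, and neither passed (limma, adjusted p = 1).

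**Figure D5:**
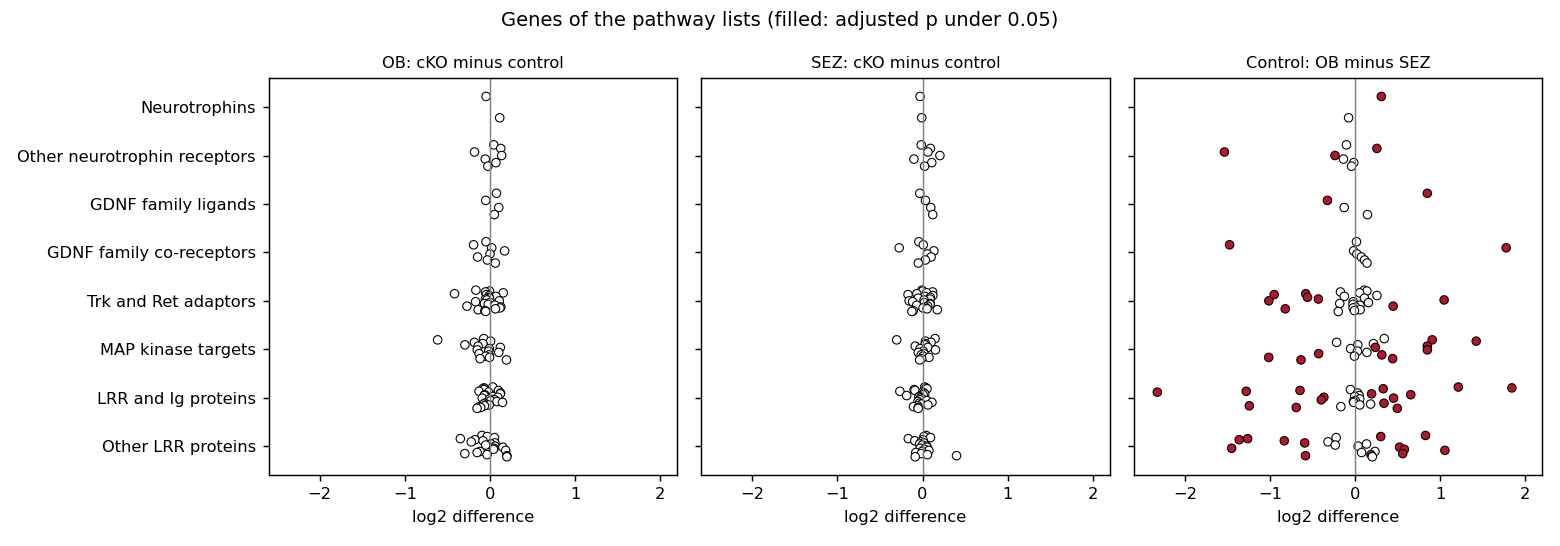
Log2 differences of single genes in the pathway lists (ligands, receptors, co-receptors, adaptors, targets and leucine-rich-repeat genes) for cKO minus control in OB and in SEZ and for OB minus SEZ in control; each point is 1 gene, filled where the adjusted p is under 0.05. The genotype differences cluster near 0, with Dusp4 lowest in OB at -0.61, while the tissue differences run from -2.32 to 1.84.

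Of 25 measured adaptors of Trk and Ret signalling, 2 were called higher in the OB of controls and 6 higher in their SEZ, against 27.5% of all genes called. Grb2, which links receptors to Ras, was higher by 1.05, while Grb7 (-1.01), Dok5 (-0.95) and Shc3 (-0.82) were lower. In OB cKO, 18 of the 25 had estimates below 0, with a median of -0.02, against 52.1% of all genes and a median of -0.005. The smallest p among them was that of Dok4, a docking protein for Ret, at -0.42 (SE 0.13, unadjusted p = 0.00537, limma adjusted p = 1). Of 18 targets of the MAP kinase cascade, 7 were higher and 3 lower in OB, against the same 27.5%, among them Dusp5 (1.42), a phosphatase, and Spry2 (-1.01), a feedback inhibitor. Dusp4, a phosphatase that turns the cascade down, averaged 7.66 ± 0.31 in OB cKO and 8.28 ± 0.23 in OB control. Its difference of -0.61 did not pass (limma, adjusted p = 0.4).

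Other genes with leucine-rich repeats held no call for genotype, where 0.0451% of all genes were called in OB and 0% in SEZ. Of 26 genes that, like Islr2, join the repeats to an immunoglobulin domain, the cKO differences in OB ran from -0.15 to 0.15, with a median of -0.04. The 21 further leucine-rich-repeat genes ran from -0.35 to 0.20, and the lowest was Flrt2, a guidance protein of the FLRT family, which did not pass. Between tissues both lists held calls in both directions, 8 higher and 7 lower in the first and 7 higher and 6 lower in the second, against 12.6% of all genes higher and 14.9% lower. Lingo3 was lower in OB by 2.32, with 9.27 in OB and 11.59 in SEZ controls, and Amigo2, an adhesion molecule, was higher by 1.84, with 9.65 and 7.81.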

How the data were processed

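The deposited log2 values were made by the authors with RMA (background correction, quantile normalisation and probe summarisation) in Affymetrix Expression Console 1.2, per the submitters' processing notes. Quantile normalisation forces one distribution on all arrays, so only changes relative to the other genes are seen. RNA was extracted with a column kit with DNase treatment, per the labels' protocols. The sources used here name no genome build for the probe sets. Array medians lay between 7.45 and 7.65. The number of arrays limits the precision, and p-values measure the spread between these samples.

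A single gene symbol was given for 21789 of 35556 probe sets, several for 1621 and none for 12146. The brightest probe set stood for each of 19938 genes. All 16 arrays were fitted with limma 3.58.1 in R 4.3.3 as 4 groups of tissue by genotype, two-sided, with Benjamini-Hochberg adjustment over all genes and a threshold of 0.05. The model was tested on simulated data. No values were imputed.

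The labels call the samples biological replicates and do not say which OB and SEZ samples share an animal.

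The members, the lists and the rule for named genes were chosen with earlier results of these data known. Named are the 5 members, ligands and co-receptors. Of each list, up to 4 genes with the largest called tissue difference and up to 4 with the smallest p in each cKO contrast could be named, and a subset of these is given. Likeness names the highest and lowest correlations, and neighbours and library checks were named by position and role. Alternatives were other scalings, filters, weights, covariates, blocks and left-out arrays.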

Additional observations from a re-analysis of the deposited data

Results flagged for a closer look

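Islr2 had a cKO difference in OB that exceeded the one in SEZ by -1.21 on the log2 scale. This difference between the tissues was the ground on which the gene was selected, so it stands as a description.

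Among 84 control groups of 5 arrays checked for members, ligands, receptors and the named tissue genes, 2 held an array far from the others. A gap above 0.71 of the group's range was counted, and chance gives about 1 in 20 such groups. Ntf5 measured 6.69 in SEZ control replicate 1, with the nearest array at 6.38. Kidins220, which encodes a scaffold of neurotrophin receptors, measured 10.87 in OB control replicate 3, with the nearest array at 11.11.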

How the results depend on the processing

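Islr2 in OB kept its direction under all 31 alternatives, and its difference of cKO effects under all 30 that could give one. With single arrays left out, Islr2 in OB ran from -1.38 to -1.22 and the difference of effects from -1.29 to -1.14. The replicate block ties arrays of one number together over both tissues and genotypes, and with it the values were -1.28 and -1.21. A separate block took same-numbered OB and SEZ arrays, both cKO or both control, as 1 animal. The replicate block changed no call of a member. Same-numbered OB and SEZ samples, both cKO or both control, deviated together (correlation over 0.1) in 7 of 8 pairs, with a median correlation of 0.347. Pairs of different numbers had a median of -0.2225, and 8 of 26 deviated together. The cKO 1 pair, at -0.0605, did not. The control 5 pair, at 0.466, did, although its samples are labelled with different genotypes. Same-numbered cKO and control samples of 1 tissue, which cannot share an animal, also tended to deviate together. Of their 6 pairs, 5 were over 0.1, with a median of 0.328, against -0.1465 and 8 of 24 for different numbers. The labels name no shared animal and not every pair deviated together, so both blocks were kept as alternatives. The cause of these shared deviations was not tested.

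Members not called for genotype turned sign as follows. Islr in OB ran from -0.27 to 0.0591 with single arrays left out, and was 0.0591 with cKO 3 left out in both tissues. Its difference of effects ran from -0.0017 to 0.33. Ret ran from -0.22 to 0.0104 in OB and from -0.0397 to 0.20 in SEZ, and in SEZ was -0.051 with the replicate block and -0.0397 with cKO 1 left out in both tissues. Ntrk2 in SEZ ran from -0.0783 to 0.0137, and was 0.00423 with the replicate block, 0.016 without SEZ control 2 and 4, and 0.0137 with cKO 3 left out in both tissues. Ntrk3 in SEZ ran from -0.024 to 0.0408. The cause of these turns was not tested.

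For OB against SEZ in cKO, where 23.1% of all genes were called, 2 of the 4 members besides Islr2 were called. This became 1 with median centring, all probe sets tested, Y-linked genes as a covariate, cKO 1 or cKO 3 left out in both tissues, and only genes above the median level, where Ret is not tested. With single arrays left out it ran from 1 to 2. In control, where 27.5% of all genes were called, 3 of the 4 members besides Islr2 were called. Leaving out single arrays changed none of these calls, and with only genes above the median level the count was 2. Without SEZ control 1, 2 GDNF co-receptors in place of 1 were higher in OB. The pathway lists held 0 calls for genotype under all 31 alternatives, where the main fit called 0.0451% of all genes in OB and 0% in SEZ. The correlation of Csnk1d with Islr2 turned to -0.0272 with group means removed. Over all genes, the 9 calls in OB ran from 2 to 10, with 2 left without OB cKO 3 and 5 without SEZ cKO 2, OB control 4, OB control 5 or SEZ control 4, or with the replicate block. Further ranges were 0 to 2 calls in SEZ and 0 to 2 for the interaction. With 3 cKO arrays per tissue, differences well below the intervals given were not detectable.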
